A study of Mus musculus with 8 samples.

Results

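The genes encoding the proteins of the cytosolic ribosome were compared between testis lacking Ssty2 and wild-type testis. They were taken by symbol as every protein-coding gene named Rpl or Rps with a number, together with Rplp0, Rplp1, Rplp2 and Rpsa, leaving out Rpl10, Rpl10l, the Rps6k kinases and pseudogene names. This gave 80 of the 56748 genes in the count table, 32 of the small (40S) and 48 of the large (60S) subunit, and all 80 passed the filter on low counts. RNA sequencing libraries came from adult testis of mice with the genotype Ssty2-/- (knockout, 4 libraries) and of wild-type mice (4 libraries). Ssty2 is a multicopy gene of the mouse Y chromosome. The labels give no age beyond adult and no strain, and do not say that the replicates come from different animals. The p-values therefore speak of the variation among these 8 libraries, part of which may be technical.

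A ribosome holds 1 copy of nearly every ribosomal protein, and cells make these proteins in matched amounts. Their mRNAs commonly begin with a run of pyrimidines, the 5′ terminal oligopyrimidine tract, through which mTORC1 and Larp1 adjust their translation together. In testis, X-linked genes are silenced during meiosis, and autosomal copies of X-linked ribosomal protein genes, such as Rpl39l, are known to be active in male germ cells.

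Start regions were searched for pyrimidine runs at any place in a window around the annotated start, so a run found need not begin the mRNA. RefSeq start regions were matched for 60 of the 80 genes. In the window from 40 bases before to 25 bases after an annotated start, a run of at least 8 pyrimidines (C or T on the gene's strand) was present in 61.7% of the 60 genes and in 28.6% of all 27025 genes with a start region. The windows below are 5′ to 3′ on the gene's strand, with the longest pyrimidine run in capitals. They are shown for Rps6 and Rps27, whose longest runs span the start, and for the X-linked genes and Rpl39l, on which the comparison turns. They lie in GRCm38.p6 at chr4:86857343-86857407 (minus strand, Rps6), chr3:90213624-90213688 (minus, Rps27), chrX:102189367-102189431 (minus, Rps4x), chrX:134585614-134585678 (plus, Rpl36a), chrX:37085198-37085262 (minus, Rpl39) and chr16:10170188-10170252 (plus, Rpl39l).
Rps6: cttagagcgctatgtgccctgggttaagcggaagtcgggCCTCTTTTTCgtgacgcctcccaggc
Rps27: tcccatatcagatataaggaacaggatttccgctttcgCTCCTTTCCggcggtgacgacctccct
Rps4x: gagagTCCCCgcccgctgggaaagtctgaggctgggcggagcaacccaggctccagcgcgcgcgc
Rpl36a: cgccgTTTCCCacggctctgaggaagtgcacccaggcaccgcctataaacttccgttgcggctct
Rpl39: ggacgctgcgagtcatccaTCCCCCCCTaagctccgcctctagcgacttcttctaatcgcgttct
Rpl39l: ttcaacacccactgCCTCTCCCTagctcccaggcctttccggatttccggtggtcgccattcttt

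The longest run had 10 pyrimidines in Rps6, 9 in Rps27, Rpl39 and Rpl39l, 6 in Rpl36a and 5 in Rps4x. Of these longest runs, only those of Rps6 and Rps27 span the annotated start. The longest runs of Rpl39, Rpl39l, Rpl36a and Rps4x begin at -21, -26, -35 and -35 from it. They end before it, outside the annotated mRNA. Further runs were not placed, and the Rpl39 window also holds a run of 8 pyrimidines after the start, inside the annotated mRNA. Other short motifs were searched on both strands from 250 bases before to 50 after the start. CGGAAG, the core of sites for ETS factors such as GABP, was present in 68.3% of the 60 genes and 18.8% of all genes. ATGGCG, found in sites for YY1, was present in 30.0% and 10.2%, and the TATA box TATAAA in 10% and 15.7%. Among the 21 matched genes that were lower in knockout (below), 66.7% had the pyrimidine run, and among the other 39 it was 59.0%. These matches describe letters in a window and no binding, and the shares with a run include runs that lie before the start.

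In knockout testis 28 of the 80 genes fell and 3 rose, by edgeR's quasi-likelihood test with a Benjamini-Hochberg adjusted p under 0.05 over all 21952 tested genes. Over all tested genes 27.4% were lower and 26.2% higher, against 35.0% and 3.75% of the ribosomal protein genes. Among autosomal protein-coding genes 34.0% were lower and 22.9% higher, so the share of ribosomal protein genes that fell was close to that of other coding genes. The median log2 fold change (knockout over wild type) was -0.13 over the 80 genes, -0.01 over all tested genes and -0.09 over autosomal protein-coding genes. The small and large subunits gave similar counts, with 12 lower and 1 higher of 32 (median -0.12) and 16 lower and 2 higher of 48 (median -0.13). The largest falls were Rpl36a, Rps4x, Rpl39, Rps3, Rpl10a and Rpl22, and the rises were Rpl29, Rplp0 and Rpsa, of which only Rpl29 held with pseudogene counts added (below).

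Scaling used edgeR's TMM factors (trimmed mean of M-values), and the CPM below, counts relative to the library total, are on that scale. Scaling by library totals alone gave 53 lower and 2 higher ribosomal protein genes, beside 37.6% lower and 17.5% higher over all genes. It moved the median of all genes to -0.15 and that of the ribosomal protein genes to -0.27. Upper-quartile factors gave 21 lower and 6 higher with a median of -0.05, and scaling to the ribosomal protein genes' own sum gave 18 lower and 4 higher with a median of -0.06. The medians of all genes under these were both 0.06. Of the 28 falls, 17 held in each of the 17 other fits tried.

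**Figure D1:**
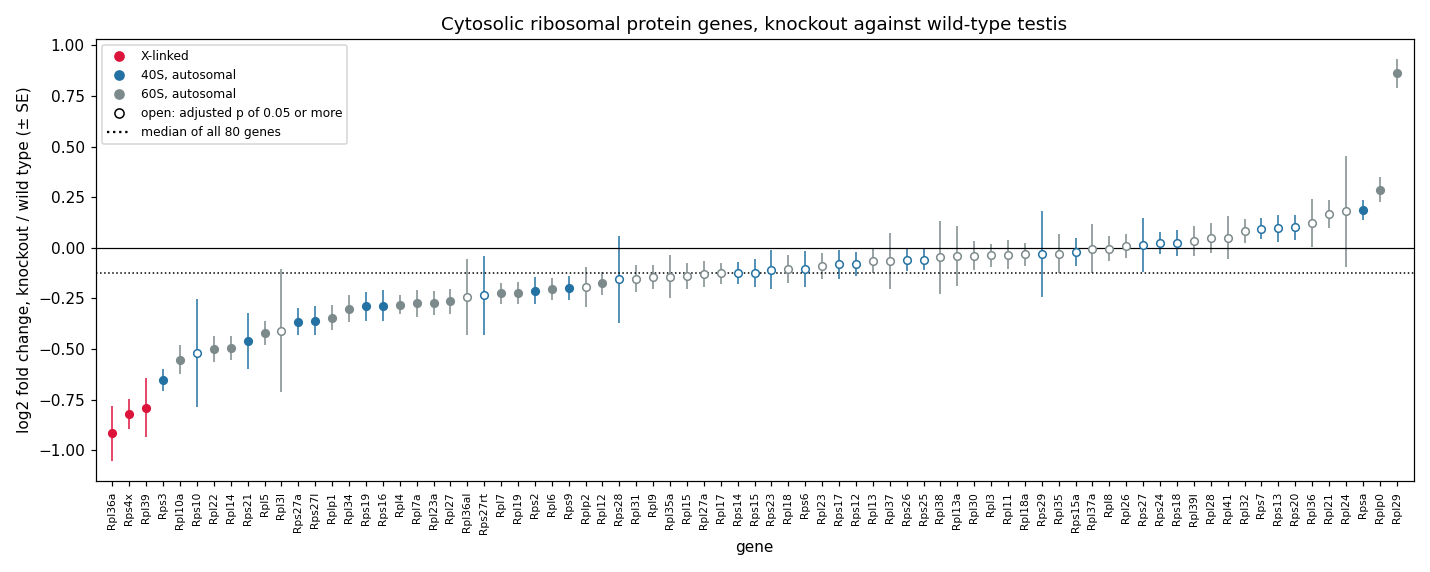
Log2 fold change of 77 of the 80 ribosomal protein genes (knockout over wild type, y axis, error bars SE from the edgeR fit, 4 libraries per group), in order of size along the x axis; filled symbols passed the test and open symbols did not. The 3 X-linked genes lie at the low end, Rpl29 alone lies far above the rest, and the dotted line marks the median of -0.13 over all 80.

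Library totals ran from 18036708 to 24415587 counts. The single gene model looked up for Ssty2 had 0 counts in every knockout library, against 56, 78, 83 and 45 in the wild-type libraries. Ssty2 is multicopy, and counts of other copies are not given here. Markers of testis cell types were present, none at 0 in all libraries, and most lists moved between the groups. Markers of round and elongating spermatids rose (10 of 10 and 9 of 10, none lower), with summed levels of 1800 to 2040 CPM in wild type and 2900 to 3020 CPM in knockout for the round spermatid list. Markers of spermatogonia fell in 7 of 10 (1 rose; 202 to 228 against 138 to 148 CPM), of Sertoli cells in 9 of 10 (1380 to 1550 against 949 to 1070 CPM) and of Leydig cells in 10 of 10 (1960 to 2270 against 1070 to 1190 CPM). Spermatocyte markers were mixed (6 of 10 lower, 2 higher, 1360 to 1720 against 1240 to 1490 CPM). Markers fell in 6 of 8 for peritubular myoid cells, 5 of 8 for macrophages and leukocytes and 3 of 8 for endothelial cells, and 0 of 3 tested erythroid markers passed. In bulk tissue, fewer cells of a type and less RNA per cell cannot be told apart, and the part of these shifts in the ribosomal protein results was not tested.

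Among the 80 genes taken by symbol, which leave out Rpl10, the 3 on the X chromosome had the 3 largest falls. Rps4x, which encodes a 40S protein, stood at 38.7, 43.1, 42.5 and 39.1 CPM in wild type and at 24.5, 24.0, 21.1 and 22.8 CPM in knockout. Every knockout library lay below every wild-type library, and the log2 fold change was -0.82 (SE 0.0733, edgeR adjusted p = 2.25e-07). Rpl36a, a 60S protein gene, stood at 19.7, 13.2, 14.7 and 18.6 CPM in wild type and 8.84, 7.50, 8.13 and 10.6 CPM in knockout (log2 fold change -0.92, SE 0.137, edgeR adjusted p = 3.85e-05). Its groups did not overlap either. Rpl39, a small protein of the 60S exit tunnel, stood at 15.2, 10.4, 8.86 and 11.5 CPM in wild type and 6.97, 6.70, 6.09 and 6.68 CPM in knockout (log2 fold change -0.79, SE 0.146, edgeR adjusted p = 0.000268). Its knockout libraries lay close together and all below wild type.

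Other X-linked genes also fell often. Of 678 tested protein-coding genes of the X, 47.1% were lower and 31.7% higher, with a median log2 fold change of -0.36. Rpl36a lay lower than most of them, with 6.93% of these genes below it, while 12.8% lay below Rps4x and 15.3% below Rpl39. Together the 3 genes held 0.540% ± 0.00858 of the counts of all ribosomal protein genes in wild type and 0.316% ± 0.0103 in knockout (SD, n = 4). The 77 autosomal genes had 25 falls and 3 rises, with a median of -0.12.

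**Figure D2:**
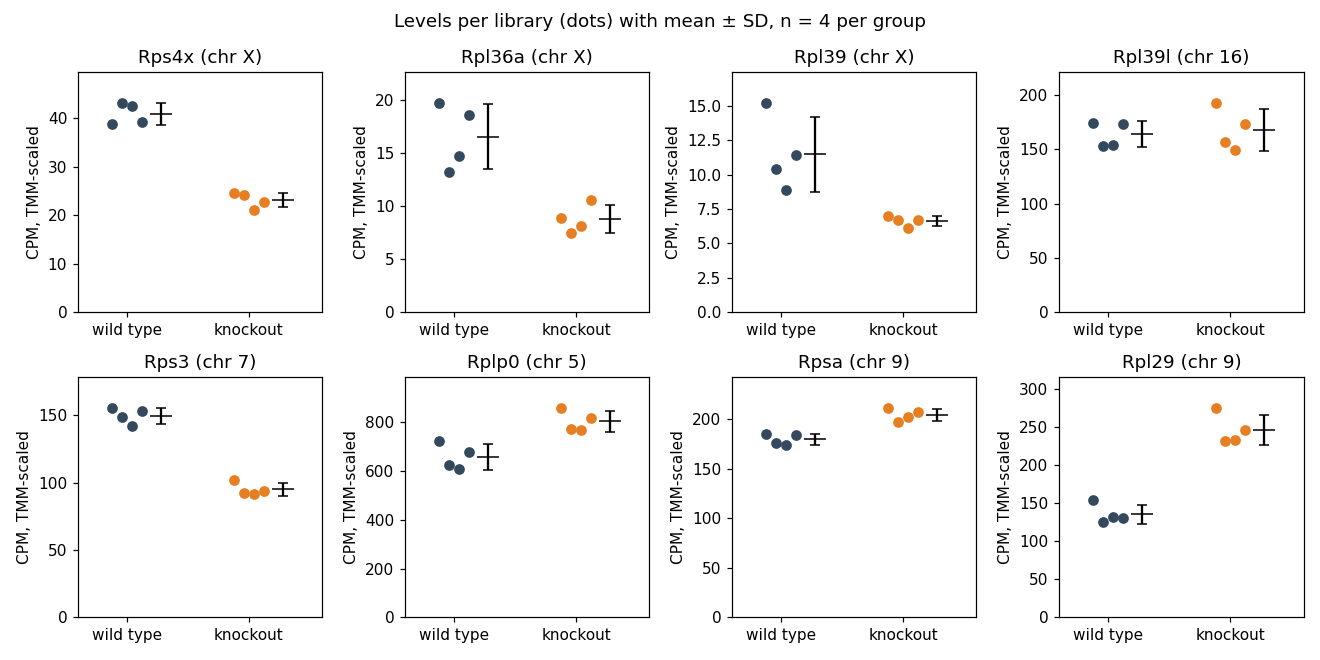
Level of 8 ribosomal protein genes in each library (dots, TMM-scaled CPM, y axes from 0), with the mean and SD of 4 libraries per group beside them. Wild type and knockout do not overlap for Rps4x, Rpl36a, Rpl39, Rps3, Rplp0, Rpsa and Rpl29, and overlap for Rpl39l.

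Rpl39l, the autosomal copy of Rpl39, stood at 175, 154, 154 and 174 CPM in wild type and 193, 157, 149 and 173 CPM in knockout, with overlapping groups and a log2 fold change of 0.03 (SE 0.0746, edgeR adjusted p = 0.723). Both genes have a coding length of 156 bases, but counts come from whole transcripts, of 612 bases for Rpl39 and 805 for Rpl39l, so a comparison of their levels is approximate. Per kilobase of coding sequence Rpl39l stood at 1052 ± 75.2 and Rpl39 at 73.6 ± 17.3 CPM in wild type (SD, n = 4). The coding sequences, from GENCODE vM21, differ at 23 of 156 positions (85.3% identity), marked in capitals. Of the 31-base words of the whole Rpl39l transcript, 1.03% also occur in Rpl39.
Rpl39: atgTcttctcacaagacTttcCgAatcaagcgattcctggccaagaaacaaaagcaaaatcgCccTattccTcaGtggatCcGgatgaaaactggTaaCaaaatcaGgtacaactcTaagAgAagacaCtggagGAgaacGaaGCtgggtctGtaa
Rpl39l: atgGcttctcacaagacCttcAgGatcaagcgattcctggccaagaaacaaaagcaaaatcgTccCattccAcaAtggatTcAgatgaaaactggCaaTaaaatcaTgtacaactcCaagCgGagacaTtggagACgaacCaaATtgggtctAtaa

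The ratio of Rpl39l to Rpl39 counts, which needs no library scaling, was 11.5, 14.7, 17.4 and 15.1 in the wild-type libraries and 27.5, 23.3, 24.4 and 25.8 in the knockout libraries. Every knockout library was higher, with geometric means of 14.5 and 25.2 (two-sided exact permutation p = 0.0286, the smallest that 4 against 4 can give; adjusted over 4 pairs p = 0.114). Rpl36al, the autosomal copy of Rpl36a, had a ratio to it of 0.132 (wild type) and 0.209 (knockout), with 1 knockout library below the highest wild-type library (exact permutation p = 0.0571, adjusted p = 0.114). Rpl36al was low, at 1.90, 2.40, 2.02 and 2.26 CPM in wild type and 2.09, 1.97, 1.56 and 1.63 CPM in knockout, and it overlaps another gene model, so its level is uncertain. None of the 4 ratios passed after adjustment.

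Rps27l, a copy of Rps27 known to be induced by p53, fell from 59.7, 61.8, 58.2 and 63.7 CPM to 48.8, 43.9, 43.3 and 53.9 CPM (log2 fold change -0.36, SE 0.0731, edgeR adjusted p = 0.000619), with no overlap. Rps27, at 227, 151, 136 and 186 CPM in wild type and 189, 154, 149 and 215 CPM in knockout, spread widely in both groups and did not pass (0.01, SE 0.134, edgeR adjusted p = 0.939). The ratio of Rps27l to Rps27 was 0.354 (wild type) and 0.271 (knockout), with an exact permutation p of 0.0857 and an adjusted p of 0.114. Their coding sequences, shown because 61 of 255 positions differ (76.1% identity) and no 31-base word is shared, are as follows, with differing positions in capitals.
Rps27: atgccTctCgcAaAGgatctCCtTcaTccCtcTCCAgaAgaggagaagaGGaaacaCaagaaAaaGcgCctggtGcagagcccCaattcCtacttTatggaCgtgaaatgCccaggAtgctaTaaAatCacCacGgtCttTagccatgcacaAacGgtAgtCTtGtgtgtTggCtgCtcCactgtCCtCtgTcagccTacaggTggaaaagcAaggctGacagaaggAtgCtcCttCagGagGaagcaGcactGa
Rps27l: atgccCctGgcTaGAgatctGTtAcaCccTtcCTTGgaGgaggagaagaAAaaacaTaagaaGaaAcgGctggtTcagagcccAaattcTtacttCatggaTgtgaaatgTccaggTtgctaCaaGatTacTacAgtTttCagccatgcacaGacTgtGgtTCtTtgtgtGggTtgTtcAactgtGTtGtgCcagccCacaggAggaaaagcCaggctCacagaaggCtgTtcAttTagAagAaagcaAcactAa

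Rps27rt has the same coding sequence as Rps27, with 0 of 255 positions different, so reads of the coding part cannot be told apart. It was counted at 2.36, 1.75, 1.91 and 1.78 CPM in wild type and 1.55, 1.41, 1.84 and 1.80 CPM in knockout, and did not pass (edgeR adjusted p = 0.328). Rpl3l, the striated muscle copy of Rpl3, was the lowest of all, at 0.771, 1.05, 1.40 and 0.768 CPM in wild type and 0.911, 0.562, 0.567 and 1.05 CPM in knockout. Neither it (edgeR adjusted p = 0.273) nor Rpl3, at 147, 148, 135 and 150 CPM in wild type and 150, 138, 133 and 143 CPM in knockout, passed the test (edgeR adjusted p = 0.595 for Rpl3).

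Among autosomal 40S genes the largest fall was in Rps3, a protein of the mRNA entry channel. It stood at 155, 148, 142 and 153 CPM in wild type and 102, 92.1, 91.9 and 93.8 CPM in knockout (log2 fold change -0.65, SE 0.0558, edgeR adjusted p = 1.39e-07). All knockout libraries were far below all wild-type libraries, and 8.95% of the 31-base words of its main transcript occur in another gene. For the other largest falls this share was 88.3% (Rpl36a), 78.4% (Rps4x), 23.7% (Rpl39), 80.75% (Rpl10a) and 9.85% (Rpl22). Of the other proteins at the mRNA channel, Rps2 fell (log2 fold change -0.21), and Rpsa rose by a call that was lost by library totals and with pseudogene counts added (values below). Rps19, mutated in Diamond-Blackfan anaemia, stood at 90.6, 84.6, 78.8 and 91.0 CPM in wild type and 79.7, 63.6, 69.0 and 69.8 CPM in knockout (-0.29, SE 0.0720, edgeR adjusted p = 0.00291), where 1 knockout library reached the range of wild type. Of 12 genes mutated in that disease, 2 fell, Rps19 and Rpl5, or 16.7%, and none rose, beside 27.4% lower and 26.2% higher over all tested genes. Rps6, the substrate of S6 kinase, stood at 155, 120, 108 and 131 CPM in wild type and 130, 114, 111 and 122 CPM in knockout, with wide overlap (-0.10, SE 0.0886, edgeR adjusted p = 0.338).

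Rps27a, which encodes ubiquitin fused to a 40S protein, fell from 154 ± 8.04 to 120 ± 11.2 CPM (SD, n = 4). Rps21 fell from 75.6 ± 12.7 to 54.9 ± 12.6 CPM, with overlapping groups. Rps16, Rps2 and Rps9 fell by smaller amounts, with log2 fold changes from -0.29 to -0.20.

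Among autosomal 60S genes Rpl10a and Rpl22 fell most. Rpl10a stood at 96.0, 90.6, 84.5 and 94.0 CPM in wild type and 72.1, 57.0, 58.0 and 62.0 CPM in knockout (-0.55, SE 0.0739, edgeR adjusted p = 1.36e-05). Rpl22, which is known to bind RNA outside the ribosome as well, stood at 64.1, 71.7, 68.5 and 71.8 CPM in wild type and 52.3, 45.6, 46.9 and 50.5 CPM in knockout (-0.50, SE 0.0654, edgeR adjusted p = 1.09e-05). Neither gene had overlapping groups. Of 10 proteins at the exit tunnel 5 fell (Rpl39, Rpl22, Rpl4, Rpl23a and Rpl19) and none rose, beside 27.4% lower and 26.2% higher over all tested genes. Rpl4 was among the tightest measurements, at 344 ± 3.79 CPM in wild type and 283 ± 9.46 CPM in knockout. Rpl14 fell from 117 ± 6.86 to 82.7 ± 4.17 CPM, and Rpl34, Rpl7a, Rpl27, Rpl7 and Rpl6 fell, with log2 fold changes from -0.30 to -0.20.

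The 2 proteins that bind 5S rRNA, and that inhibit Mdm2 when free, differed in their result. Rpl5 stood at 136, 151, 136 and 149 CPM in wild type and 115, 108, 99.8 and 104 CPM in knockout, with no overlap (-0.42, SE 0.0597, edgeR adjusted p = 2.29e-05). Rpl11 stood at 205, 170, 172 and 190 CPM in wild type and 205, 172, 167 and 176 CPM in knockout and did not pass (-0.03, SE 0.0722, edgeR adjusted p = 0.716). Whether the 2 changes differ from each other was not tested.

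The P stalk, the flexible arm that recruits elongation factors, is built from Rplp0 with Rplp1 and Rplp2. Rplp1 fell from 284, 287, 271 and 309 CPM to 252, 218, 210 and 225 CPM (-0.35, SE 0.0616, edgeR adjusted p = 0.000195), without overlap. Rplp2 stood at 93.8, 71.2, 74.7 and 90.3 CPM in wild type and 83.1, 60.1, 69.5 and 75.8 CPM in knockout, overlapped and did not pass (-0.19, SE 0.0987, edgeR adjusted p = 0.108). It passed by library totals (-0.33, edgeR adjusted p = 0.00789), without the filter (-0.20, edgeR adjusted p = 0.0133), and without knockout library 1 or wild-type library 2 (-0.27 in both, edgeR adjusted p = 0.0267 and 0.0411). Rplp0, the base of the stalk and the ribosomal protein gene with the highest CPM, stood at 723, 623, 607 and 676 CPM in wild type and 855, 770, 767 and 817 CPM in knockout (0.29, SE 0.0601, edgeR adjusted p = 0.000774). Every knockout library was above every wild-type library, but the call was lost when pseudogene counts were added (0.09, edgeR adjusted p = 0.253). Without pseudogene counts, the 3 stalk genes held 8.05% ± 0.137 of all ribosomal protein counts in wild type and 9.05% ± 0.143 in knockout.

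The other rises were Rpl29 and Rpsa. Rpl29, a 60S protein whose loss in mice is known to reduce growth, stood at 154, 126, 131 and 131 CPM in wild type and 275, 232, 233 and 247 CPM in knockout (0.86, SE 0.0706, edgeR adjusted p = 9.58e-08), with no overlap. Rpsa, the laminin receptor protein near the mRNA exit, stood at 185, 176, 174 and 184 CPM in wild type and 211, 197, 202 and 207 CPM in knockout (0.18, SE 0.0496, edgeR adjusted p = 0.00497), also with no overlap. By library totals Rpsa no longer passed (0.04, edgeR adjusted p = 0.464).

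Ribosomal protein genes have many processed pseudogenes, and single pseudogenes of the 3 risen genes, as well as of some genes that did not rise, fell steeply. A total of 634 pseudogenes shared at least 100 words of 31 bases with 70 of the 80 genes. Of these pseudogenes 96 passed the filter, 21 were lower and 11 higher, smaller shares than the 27.4% and 26.2% over all tested genes, and 10 were lower by at least 8-fold while 0 were higher by as much. The 10 belong to Rpl29, Rplp0, Rpsa, Rps15a, Rpl11 and Rpl15, the last 3 of which did not pass. Gm8730, a pseudogene of Rplp0, went from 2003, 1870, 1959 and 1900 counts in the wild-type libraries to 71, 61, 63 and 50 in knockout (87.97 ± 11.7 to 3.14 ± 0.448 CPM, log2 fold change -4.81). Rpsa-ps10 went from 592, 689, 741 and 641 counts to 27, 33, 35 and 22 in knockout (-4.33). The way reads with several map positions were counted is not given in the sources used here, so a gene and its pseudogene could share reads.

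Summed with its pseudogene, each gene differed less between the groups. Rplp0 and Gm8730 together stood at 745 ± 64.3 CPM in wild type and 805 ± 42.4 CPM in knockout (SD, n = 4), where Rplp0 alone gained 145 CPM and Gm8730 fell by 84.8 CPM. Rpsa and Rpsa-ps10 together stood at 210 ± 6.32 and 206 ± 5.76 CPM, where Rpsa gained 24.5 CPM and the pseudogene fell by 28.5 CPM. In a fit chosen after seeing the data, with the counts of all assigned pseudogenes added to their genes, Rplp0 had a log2 fold change of 0.09 (edgeR adjusted p = 0.253) and Rpsa one of -0.03 (edgeR adjusted p = 0.662), so neither call held. Rpl29 kept its rise in that fit (0.73, SE 0.0655, edgeR adjusted p = 2.45e-07). The Rpl29 pseudogenes Gm8210 and Gm13841 lost little in absolute terms, from 3.80 to 0.0604 CPM and from 5.38 to 0.441 CPM. Rpl29 itself rose from 136 ± 12.8 to 246 ± 19.9 CPM. The X-linked genes, Rps3, Rpl10a and Rpl22 also kept their falls, with log2 fold changes from -0.86 to -0.49. Over all 80 genes, pseudogenes held 3.04% ± 0.0779 of the joint counts in wild type and 1.91% ± 0.104 in knockout.

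**Figure D3:**
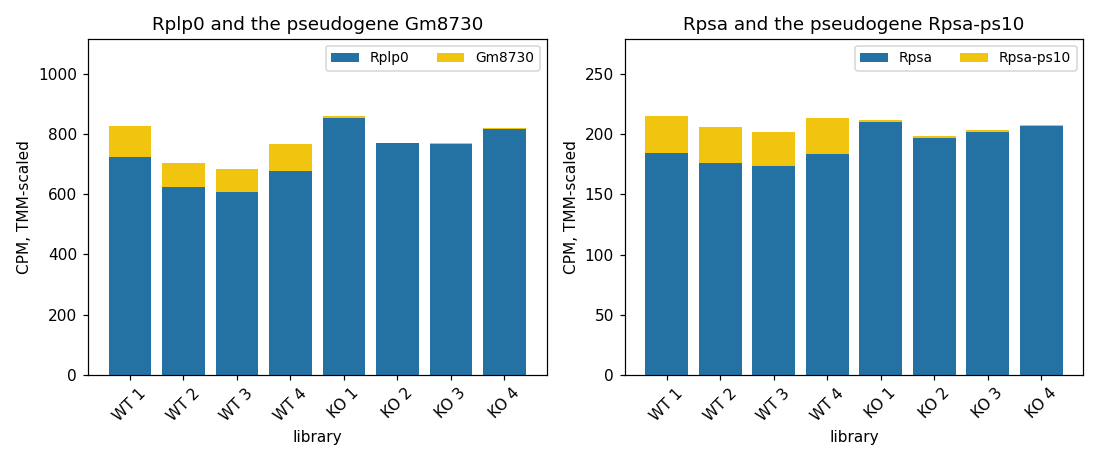
Level of Rplp0 with Gm8730 (left) and of Rpsa with Rpsa-ps10 (right) in each library, as stacked bars of TMM-scaled CPM from 0 (blue, gene; yellow, pseudogene; WT, wild type; KO, knockout). The pseudogene part is nearly gone in the 4 knockout libraries, and the summed bars overlap between the groups.

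The ribosomal protein genes differed widely in level, given here per kilobase of coding sequence although untranslated parts add counts too. Per kilobase of coding sequence the median was 313 CPM in wild type (quartiles 204 and 417) and 286 CPM in knockout. Rpl41, with a coding length of 78 bases, led at 4284 ± 805 CPM per kilobase in wild type, followed by Rpl39l, Rps20, Rps24 and Rps14. The order of Rps20 (881 ± 51.3) and Rps24 (871 ± 20.5) lies within their SD. In plain CPM, Rplp0 was followed by Rps7, a 40S protein gene, at 397, 419, 419 and 432 CPM in wild type and 439, 462, 413 and 462 CPM in knockout, and by Rpl13, a 60S protein gene, at 436, 392, 400 and 422 CPM in wild type and 441, 371, 373 and 391 CPM in knockout. Both had overlapping groups and did not pass (edgeR adjusted p = 0.142 and 0.365).

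At the low end, 6 genes stood under 20 CPM per kilobase in wild type. They were Rpl3l, Rpl24, Rps10, Rpl36al, Rpl13a and Rps27rt. Apart from Rpl3l, each overlaps or repeats another gene model. Counts of Rps27rt may be split with Rps27. The models sharing most words with Rpl24, Rps10 and Rpl13a were counted at 0 CPM in both groups. For Rpl36al that model stood at 0.00972 CPM in wild type and 0.0145 CPM in knockout. Counts of these genes were therefore not split with those models, and the cause of their low counts was not tested. Rps10 was counted at 1.39, 2.53, 1.79 and 1.97 CPM in wild type and 1.18, 0.937, 1.18 and 2.15 CPM in knockout, and Rpl24 at 1.44, 0.917, 1.24 and 1.39 CPM in wild type and 1.18, 0.984, 1.28 and 2.27 CPM in knockout. Neither passed (edgeR adjusted p = 0.110 and 0.604), though Rps10 passed without knockout library 4 (-0.81, edgeR adjusted p = 0.0155) and by library totals (-0.66, edgeR adjusted p = 0.0459).

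Short genes varied more between the libraries of a group than long ones. Over the 74 genes with at least 10 CPM in wild type, the coefficient of variation between libraries of a group fell with coding length (Spearman's rho -0.52 in wild type and -0.61 in knockout, a description across genes that share the same libraries). Among the 20 shortest genes, from 78 to 348 coding bases, the 18 at that level had a median coefficient of 18.7% in wild type and 14.8% in knockout, against 4.63% and 6.61% for 19 of the 20 longest. Rps29, for example, stood at 146, 70.5, 51.9 and 94.5 CPM in wild type, with the first library highest, and at 109, 76.9, 74.2 and 94.4 CPM in knockout. The median SE of the log2 fold change was 0.119 over those 18 short genes and 0.0603 over the 19 long ones. The test called 5 falls (25%) and no rise among the 20 shortest genes and 12 falls (60%) and 2 rises (10%) among the 20 longest. Over all tested genes 27.4% were lower and 26.2% higher. Fold change itself was only weakly related to coding length (rho -0.15), and more to mean level (rho 0.54), where genes of lower level tended to have the larger falls.

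**Figure D4:**
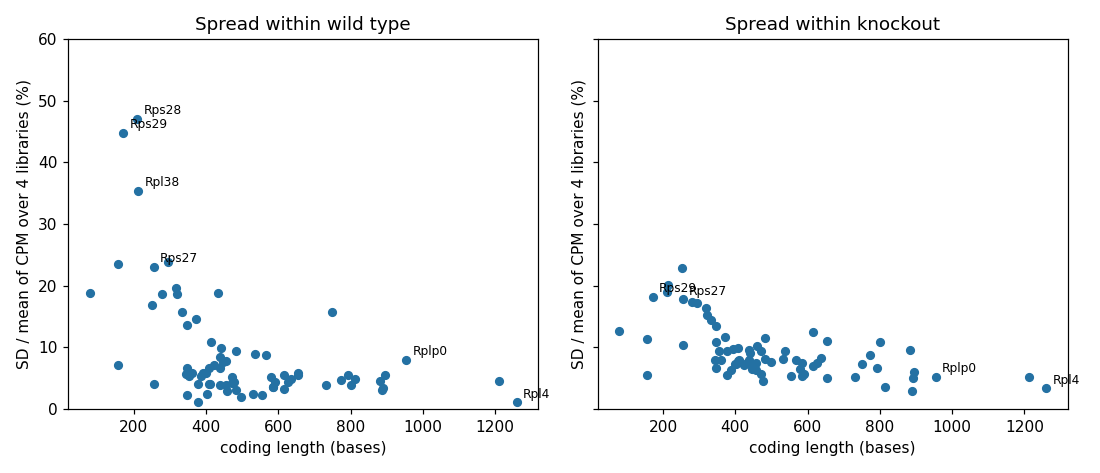
Coefficient of variation of CPM over the 4 libraries of a group (y axis, percent) against coding length (x axis, bases) for the 74 ribosomal protein genes with at least 10 CPM in wild type, with wild type on the left and knockout on the right. Short genes such as Rps29 spread most, and long genes such as Rpl4 lie near the bottom in both groups.

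The share of all counts that came from ribosomal protein genes was 1.41%, 1.32%, 1.27% and 1.37% in wild type and 1.26%, 1.11%, 1.09% and 1.18% in knockout. Every knockout library was below every wild-type library, the first knockout library only just. The means were 1.34% ± 0.0634 and 1.16% ± 0.0802 (SD, n = 4). On the TMM scale the summed level in knockout was 0.954 of that in wild type, and the groups overlapped, at 12000 to 13610 CPM in wild type and 11320 to 13280 CPM in knockout. The 40S genes held 38.9% ± 0.0787 of the ribosomal protein counts in wild type and 38.5% ± 0.367 in knockout.

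Other parts of the translation machinery were counted in the same fit. Of 5 ribosomal protein genes with other names, Rack1, a scaffold on the 40S head, fell from 143 ± 2.65 to 101 ± 7.15 CPM (log2 fold change -0.50) and Rpl7l1 fell by 0.54 on the log2 scale. Rps3a1, a 40S protein gene whose symbol the rule leaves out, fell from 147 ± 9.49 to 118 ± 6.93 CPM (-0.31, edgeR adjusted p = 0.000428).

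Ribosome biogenesis factors, which make and process rRNA and assemble the subunits, had 45 falls and 8 rises among 85 genes (median -0.19). Ncl, the nucleolar protein nucleolin, fell from 155 ± 13.1 to 96.8 ± 6.53 CPM, and Noc2l fell by 0.93 on the log2 scale, Mphosph10 fell by 0.86, while Mrto4 rose from 49.0 ± 4.02 to 79.4 ± 6.49 CPM. Of 77 mitochondrial ribosomal protein genes 30 fell and 3 rose (median -0.16), with Mrpl3 going from 43.4 ± 3.83 to 28.8 ± 1.78 CPM. The falls and rises counted in this paragraph read against 27.4% lower and 26.2% higher over all tested genes. Over autosomal coding genes the shares were 34.0% lower and 22.9% higher. Elongation and initiation factors had 7 falls and 14 rises among 37 genes (median 0.06). Eif4a1, the cap-complex helicase, fell from 192 ± 6.33 to 136 ± 5.35 CPM and the X-linked Eif2s3x fell by 0.87 on the log2 scale, whereas Eef1d rose from 623 ± 49.5 to 844 ± 21.2 CPM. A mixed list of mTORC1 and translation regulators also held transcription factors such as Mycn, Max and Yy1. Of its 24 tested genes 12 fell and 6 rose (median -0.21). Mycn, at 4.46 ± 0.553 and 2.05 ± 0.545 CPM, and Rps6kb1, the S6 kinase gene, fell, and Larp1, which binds oligopyrimidine mRNAs, rose (log2 fold change 0.28, SE 0.0472). By library totals the rises among elongation and initiation factors were 4 and the falls 15.

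**Figure D5:**
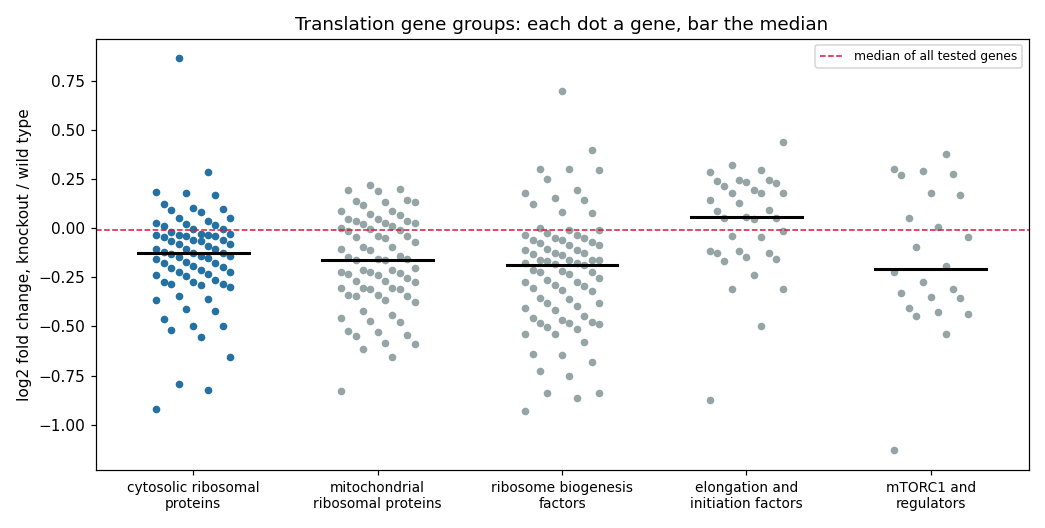
Log2 fold change (knockout over wild type, y axis) of each tested gene of 5 translation groups (dots), with the median of each group as a bar and the median of all tested genes as a dashed line. Medians lie at -0.13 for cytosolic ribosomal proteins, -0.16 for mitochondrial ribosomal proteins and -0.19 for biogenesis factors. They lie at 0.06 for elongation and initiation factors and -0.21 for the mixed list of mTORC1 and translation regulators.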

How the data were processed

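The deposited table holds raw counts per Ensembl gene, made by the authors as whole numbers without normalization, with a column for each library. The tools named, per the submitters' processing notes, are Trimmomatic and FastQC for the reads, STAR, featureCounts and DESeq2, with build mm39. Their versions and settings, the strand and the handling of reads with several map positions were not given in the sources used here. RNA was extracted with TRIzol and libraries were made with a TruSeq kit, per the labels' protocols.

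Symbols, coding sequences and transcripts came from GENCODE vM21 (GRCm38), and start regions from RefSeq (GRCm38.p6), so no coordinates of mm39 are given. Counts were tested over the whole table with edgeR 4.0.16 in R 4.3.3 (filterByExpr, minimum count 10 and minimum total 15; TMM; genotype as the only term; quasi-likelihood test; Benjamini-Hochberg adjusted p under 0.05). The procedure was tested on simulated data. Alternatives used other scalings, DESeq2 1.42.0, limma-voom (limma 3.58.1), other filters, a replicate block and each library left out. Paralog ratios were compared by exact permutation tests on log2 ratios with 0.5 added to each count. Pseudogenes were assigned by shared 31-base words of transcripts. Depth was 18036708 to 24415587 counts per library, and the spread between libraries of a group exceeded counting error (chi-square per degree of freedom 4.19 to 8.52).

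The genes and lists were chosen with earlier results of these data known. Values in every library are given for the 6 called genes with the largest fall and up to 6 with the largest rise, for the P stalk, 5S RNP, paralog and X-linked groups, for Rps6 and Rps19, and for the 3 highest and 3 lowest levels. Of each further list up to 4 called genes per direction with the smallest p could be named. Rps29, Rpl4, Rpl14, Rps27a, Rps21, Rps3a1 and other genes given as mean ± SD or by a range were chosen after their values were seen. The results of a few genes are counted in the totals and are not reported here by name.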

Additional observations from a re-analysis of the deposited data

How the results depend on the processing

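The number of genes that fell (28) became 53 by library totals, 18 when libraries were scaled to the ribosomal protein genes' own sum and 10 among the 25 genes with under 20% of the words of all their transcripts shared, and ran from 26 to 36 with each library left out. The number that rose (3) became 6 with upper-quartile factors, 0 among those 25 genes and 1 with pseudogene counts added. The median of -0.126 became -0.268 by library totals and ran from -0.179 to -0.0853 with each library left out. It stayed negative under each scaling tried. Rpsa turned to -0.0272 with pseudogene counts added. The share of calls that were rises over all genes was 48.9%, against 31.8% by library totals, 57.6% with upper-quartile factors and 58.3% by the ribosomal protein sum. By library totals, elongation and initiation factors had 15 lower and 4 higher, and biogenesis factors 68 and 4. By the same scaling the mTORC1 and translation regulators had 3 higher, and mitochondrial ribosomal proteins had 48 lower and 0 higher. By the ribosomal protein sum the lower counts were 4, 28, 7 and 16. The mitochondrial ribosomal proteins that rose (3) were 5 with upper-quartile factors, 1 without the filter and 0 to 4 with each library left out (0 without wild type 3, 1 without knockout 4 or wild type 2). The cause of these differences was not tested. Groups share replicate numbers, but deviations of same-numbered libraries correlated by 0.0798, 0.0225, 0.0605 and 0.00201, not all over 0.1, and not every library correlated best with its own number, so the numbers were not taken as pairs. With a replicate block 35 genes were lower, 5 higher, and 11 elongation and initiation factors lower, and Rplp2 passed (edgeR adjusted p = 0.00561). The paralog ratios kept their direction with each library left out, with 1 in place of 0.5 added and with the block. By library totals Rpl11, Rpl3, Rps6 and Rpl13 passed as lower, and with upper-quartile factors Rps7 passed as higher. Low counts limit Rps10, Rpl24, Rps27rt, Rpl36al and Rpl3l most, which stood near 1 to 2 CPM.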
